A study of Homo sapiens with 8 samples.

Results

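LIN28B, the described let-7 targets HMGA1, HMGA2, IGF2BP1, IGF2BP2, IGF2BP3 and DICER1, and the MYC family genes MYCN, MYC and MYCL1 were followed across 2 neuroblastoma cell lines with and without a TRPM7 shRNA. Members were all probes whose gene symbol was one of these 10, which gave 22 of the 47322 probes on the array. The set was chosen by the measured difference of LIN28B between TRPM7 shRNA and control cells, which was positive in both lines, and the other genes were listed around it, so that this difference is given below as a description without a test. TRPM7 is a divalent cation channel fused to a kinase.

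The data are from 8 bead arrays (Illumina HumanHT-12 v4), 2 in each of 4 groups. SH-SY5Y, a neuroblastic line, and SH-EP2, an epithelial-like line, were each transduced by lentivirus with a scrambled shRNA (control) or with a TRPM7 shRNA. The labels name 1 serum-containing medium for all arrays, whereas the study's methods give each line a basal medium of its own, so that medium and line cannot be told apart. All 4 groups therefore carried a lentiviral shRNA, and neither untransduced cells nor an independent TRPM7 shRNA were on these arrays. Whether the duplicates were separate cultures is not given in the sources used here, so that the p-values measure only the spread between these arrays, which may be technical.

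Each array detected 40.8% to 44.2% of the probes (detection p under 0.05), and precision is limited throughout by having 2 arrays a group. With so few, the arrays of 2 groups can lie apart by chance, so that such separations are given below as description only. Of 13 noradrenergic markers, 12 were detected on both arrays of each SH-SY5Y group and 5 on those of each SH-EP2 group, and the exception in SH-SY5Y was TH, the first enzyme of catecholamine synthesis. Of 12 mesenchymal markers, 9 were detected in each SH-SY5Y group and 12 in each SH-EP2 group. None of the 8 arrays detected the TRPM7 probe (detection p from 0.0753 to 0.201), so that the knockdown could not be checked here. With the TRPM7 shRNA, 2 noradrenergic markers were called lower in SH-SY5Y and 1 higher and 2 lower in SH-EP2 (1 of these, CHGA, not detected in either group), and of the mesenchymal markers 1 was higher and 3 lower in SH-SY5Y and 1 higher and 2 lower in SH-EP2. Over all genes 2.57% were called in SH-SY5Y and 3.67% in SH-EP2 (6.20% and 8.64% of those with a mean log2 signal of at least 5). Summed log2 levels of the noradrenergic list were 132.2 and 132.6 in SH-SY5Y control cells against 127.9 and 129.5 with the shRNA, and 44.4 and 44.7 against 43.1 and 46.4 in SH-EP2. Those of the mesenchymal list were 86.4 and 86.8 against 84.4 and 85.4 in SH-SY5Y, and 128.0 and 129.0 against 128.7 and 129.4 in SH-EP2. The part of these markers in the results below was not tested.

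The LIN28 proteins and the let-7 microRNAs form a double-negative loop. LIN28B binds let-7 precursors at a GGAG motif in the terminal loop and keeps them from being processed, and mature let-7 in turn represses the LIN28B mRNA. Through the bases of its seed, let-7 pairs with sites in mRNAs of oncofetal genes, among them HMGA2 and the IGF2BP family, and it also represses MYC family and DICER1 transcripts. LIN28B is known in neuroblastoma as a gene that is often highly expressed and that raises MYCN by lowering let-7. The question put to the arrays was whether let-7 targets rose where LIN28B rose.

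The mature let-7 family is shown because a shared seed is what makes its members act on the same mRNAs. The 9 mature sequences of let-7 and miR-98, taken from RefSeq (GRCh38.p14), are printed 5′ to 3′, with the seed, bases 2 to 8, in capitals. All 9 had the seed GAGGUAG and differed from each other outside it.
hsa-let-7a-5p: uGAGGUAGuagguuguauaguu
hsa-let-7b-5p: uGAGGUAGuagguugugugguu
hsa-let-7c-5p: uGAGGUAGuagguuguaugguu
hsa-let-7d-5p: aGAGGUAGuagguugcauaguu
hsa-let-7e-5p: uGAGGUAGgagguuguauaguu
hsa-let-7f-5p: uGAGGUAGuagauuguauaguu
hsa-let-7g-5p: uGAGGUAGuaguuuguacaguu
hsa-let-7i-5p: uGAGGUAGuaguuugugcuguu
hsa-miR-98-5p: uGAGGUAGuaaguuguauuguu

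The hairpins are shown for the motif that LIN28B reads. Of 12 let-7 and miR-98 hairpins, 11 had both arms annotated, and 8 of these held GGAG between the arms. Of the 3 printed from RefSeq (GRCh38.p14), MIRLET7G and MIRLET7I hold the motif there, in capitals, and MIRLET7A3 has no such match.
MIRLET7G: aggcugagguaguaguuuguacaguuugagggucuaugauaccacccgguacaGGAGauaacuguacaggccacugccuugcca
MIRLET7I: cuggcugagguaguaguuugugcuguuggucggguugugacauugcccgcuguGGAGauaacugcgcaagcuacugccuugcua
MIRLET7A3: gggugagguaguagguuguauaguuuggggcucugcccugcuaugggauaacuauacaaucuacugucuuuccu

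MYC proteins have been described as activators of LIN28B, and MYC with its partner MAX binds the E-box CACGTG. The E-box, which reads the same on both strands, was searched in windows of 300 bases, from 250 before to 50 after each annotated start (RefSeq, GRCh38.p14). It was found in 7.26% of all 35116 windows. Windows were matched for 7 members, 14 in all, and 2 of these held the motif, 1 of LIN28B and the only one of IGF2BP3. Both are printed as the member windows with a match, with the motif in capitals. LIN28B and IGF2BP3 had higher signals with the TRPM7 shRNA in both lines, as did HMGA1, whose windows held no match. The LIN28B window, chr6:104956857-104957156 on the plus strand, has its match 47 bases before the start, and the other LIN28B window (chr6:104940715-104941014) has none. The IGF2BP3 window, chr7:23470442-23470741 on the minus strand, has matches 174 and 146 bases before the start. These are matches of letters and no binding was measured.
LIN28B: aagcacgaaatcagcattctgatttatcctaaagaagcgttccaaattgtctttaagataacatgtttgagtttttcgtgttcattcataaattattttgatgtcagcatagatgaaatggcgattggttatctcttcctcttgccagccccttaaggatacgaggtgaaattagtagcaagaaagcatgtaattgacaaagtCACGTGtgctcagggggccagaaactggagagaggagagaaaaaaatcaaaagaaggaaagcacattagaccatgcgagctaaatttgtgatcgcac
IGF2BP3: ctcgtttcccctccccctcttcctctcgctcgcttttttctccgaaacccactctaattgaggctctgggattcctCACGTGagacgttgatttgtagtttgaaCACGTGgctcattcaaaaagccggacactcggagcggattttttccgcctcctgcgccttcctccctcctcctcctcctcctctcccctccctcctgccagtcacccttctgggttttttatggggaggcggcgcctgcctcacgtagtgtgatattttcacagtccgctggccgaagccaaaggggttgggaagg

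LIN28B was the member with the widest range. Its single probe (ILMN_1748697) had log2 normalized signals of 7.70 and 7.81 in SH-SY5Y control cells and 9.01 and 8.97 in SH-SY5Y TRPM7 shRNA cells. In SH-EP2 cells the signals were 2.22 and 2.21 in controls, where the probe was not detected, and 4.69 and 4.66 with the TRPM7 shRNA, where it was. The 4 groups did not overlap and lay in the order SH-SY5Y TRPM7 shRNA, SH-SY5Y control, SH-EP2 TRPM7 shRNA, SH-EP2 control, and neighbours in that order were further apart than the duplicates of any group.

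In SH-SY5Y cells the mean LIN28B signal was 1.23 higher on the log2 scale with the TRPM7 shRNA, or 2.34-fold. In SH-EP2 cells the fitted difference was 2.46, but since the control arrays did not detect LIN28B only a bound of at least 2.73-fold can be given. Such a bound sets the mean of the brighter group against the lowest detected signal of each dim array. Before normalization, the bead signals of LIN28B in SH-EP2 cells were 112 and 109 in controls and 142 and 140 with the TRPM7 shRNA, against 338 and 280 and then 636 and 685 in SH-SY5Y cells. The size of the SH-EP2 difference rested on the background correction: it was 1.10 with neqc, 0.53 with normexp and 0.34 without any correction, and with these 3 settings it was no longer larger than the SH-SY5Y difference.

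**Figure D1:**
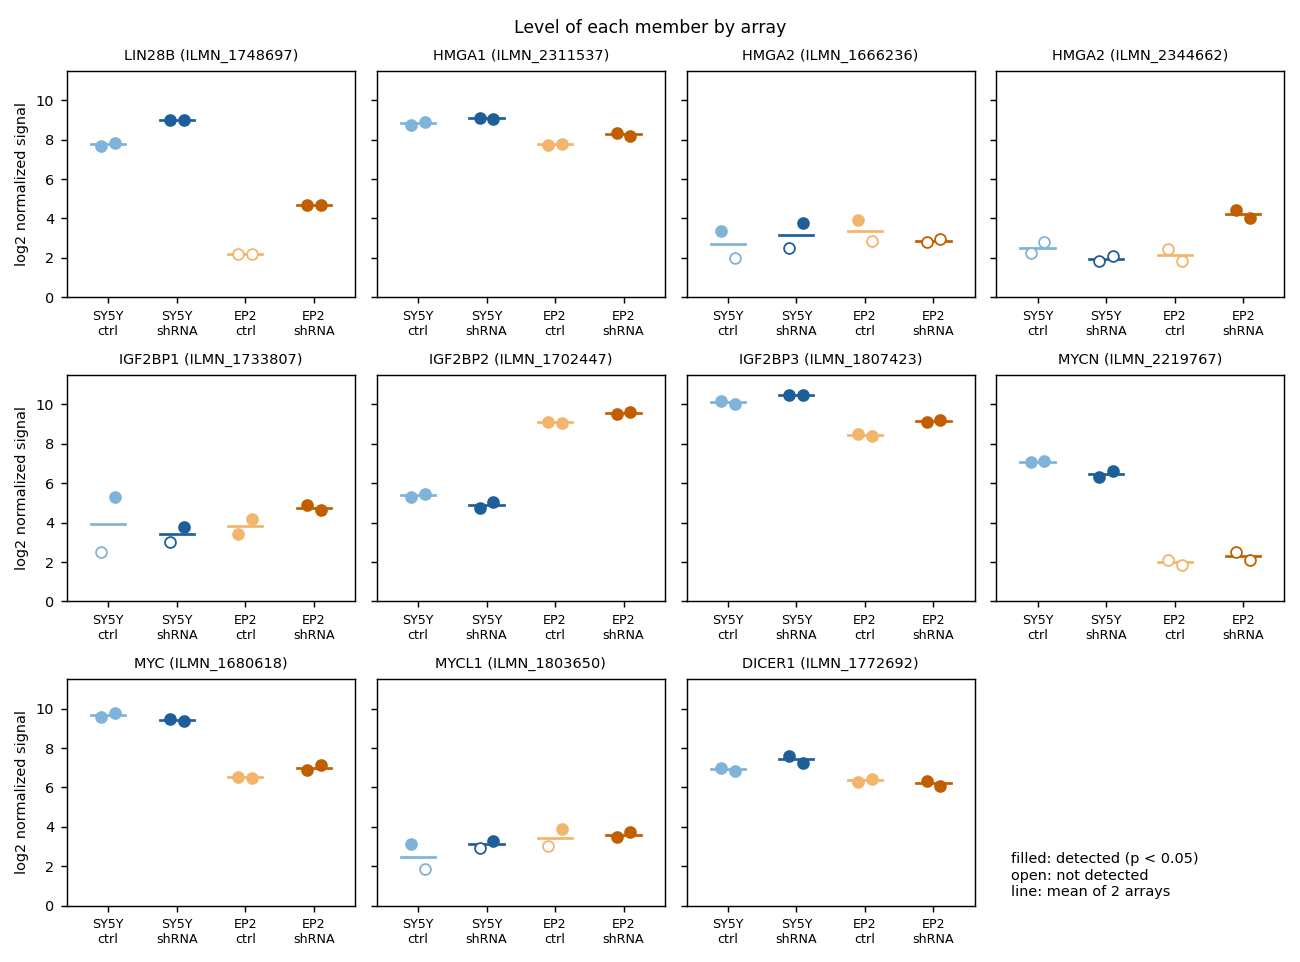
Log2 normalized signal (y axis) of the brightest probe of each member, and of a second HMGA2 probe, on the 8 arrays, with 2 arrays per group (points) and their mean (line); filled points were detected and open points were not. LIN28B, HMGA1 and IGF2BP3 lie higher with the TRPM7 shRNA in both lines, MYC and IGF2BP2 lie higher with it in SH-EP2 and lower in SH-SY5Y, and MYCN was detected on the SH-SY5Y arrays and on no SH-EP2 array.

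Control cells of the lines differed in LIN28B far more than control and TRPM7 shRNA cells did. LIN28B was at least 23.1-fold lower in SH-EP2 than in SH-SY5Y control cells (limma, adjusted p = 1.5e-14), a contrast that was not used to choose it. The bound holds with the RMA correction. The fitted difference was -5.54 with it, -3.45 with neqc, -2.12 with normexp and -1.59 without correction, and passed in all 17 alternatives. Of the 10 members, 7 differed between the control lines, 6 lower and 1 higher in SH-EP2, where 30.1% of all genes were called (15.9% lower) and 65.8% of those with a mean log2 signal of at least 5. MYCN, MYC, IGF2BP3, HMGA1 and DICER1 were the others that were lower in SH-EP2, and IGF2BP2 was the one that was higher.

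The RNA-binding proteins of the IGF2BP family bind and stabilise mRNAs, those of IGF2 and MYC among them. IGF2BP3 was the member that followed LIN28B most closely. Its probe (ILMN_1807423) had log2 signals of 10.18 and 10.04 in SH-SY5Y control cells and 10.50 and 10.48 with the TRPM7 shRNA. In SH-EP2 cells the values were 8.49 and 8.42 in controls and 9.13 and 9.20 with the TRPM7 shRNA. The shRNA arrays lay above the control arrays in both lines, and SH-EP2 lay below SH-SY5Y throughout.

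IGF2BP3 rose by 0.38 ± 0.10 (SE) on the log2 scale in SH-SY5Y cells (1.30-fold, limma, adjusted p = 0.044) and by 0.71 ± 0.10 in SH-EP2 cells (1.64-fold, adjusted p = 0.000137). It was the 1 of the 9 members other than LIN28B that passed in SH-SY5Y, where 2.57% of all genes were called (0.999% higher) and 6.20% of those with a mean log2 signal of at least 5. It was also 1 of 61 genes (0.194%) that were called higher in both lines. The SH-SY5Y call was narrow. It was lost in 10 of 18 alternatives, among them leaving out any array other than SH-SY5Y control replicate 1, with a difference of 0.31 (adjusted p = 0.278) when SH-SY5Y control replicate 2 was left out. The SH-EP2 call held in 17 of 18, and without an intensity trend its adjusted p was 0.183. The difference between the lines, 0.33, did not pass (adjusted p = 0.387, 95% interval 0.04 to 0.61 before adjustment). SH-EP2 control cells had 3.16-fold less IGF2BP3 signal than SH-SY5Y control cells (log2 difference -1.66, adjusted p = 2.5e-11).

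IGF2BP2 had the opposite line pattern. Its probe (ILMN_1702447) gave log2 signals of 5.32 and 5.46 in SH-SY5Y control cells and 4.74 and 5.04 with the TRPM7 shRNA, against 9.10 and 9.08 in SH-EP2 control cells and 9.51 and 9.61 with the TRPM7 shRNA. The shRNA arrays were the lower pair in SH-SY5Y and the upper pair in SH-EP2. In the fit of both lines neither difference passed (-0.50 ± 0.15, adjusted p = 0.124 in SH-SY5Y; 0.47 ± 0.15, adjusted p = 0.135 in SH-EP2). The SH-EP2 increase passed in 4 of 18 alternatives, with neqc (0.45, adjusted p = 0.0301), normexp (0.42, 0.00425), no background correction (0.40, 0.00137) and each line fitted alone (0.47, 0.000887). The SH-SY5Y difference passed in none of 18, and was -0.12 at its smallest.

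The difference between the lines did pass, at 0.97 ± 0.22 (limma interaction, adjusted p = 0.026). It was 1 of 2 such members, where 1.78% of all genes were called and 4.49% of those with a mean log2 signal of at least 5. It passed in 9 of 17 alternatives, with sizes down to 0.52; leaving out any SH-EP2 array raised its adjusted p to between 0.115 and 0.180, leaving out SH-SY5Y control replicate 2 gave 0.0634 and leaving out SH-SY5Y TRPM7 shRNA replicate 1 gave 0.0847. IGF2BP2 was 13.0-fold higher in SH-EP2 than in SH-SY5Y control cells (adjusted p = 1.3e-13). That log2 difference of 3.70 was 2.46 with normexp and 2.08 without correction, and passed in all 17 alternatives.

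IGF2BP1, the member of the family best known as a fetal protein, stayed near background. Its probe (ILMN_1733807) was detected on 6 of 8 arrays, with log2 signals of 2.52 and 5.30 in SH-SY5Y control cells, 3.03 and 3.79 with the TRPM7 shRNA, 3.43 and 4.18 in SH-EP2 control cells and 4.88 and 4.62 with the TRPM7 shRNA. The SH-SY5Y control duplicates were further apart than any pair of group means. No IGF2BP1 contrast passed with all arrays (adjusted p from 0.600 to 0.941). SH-SY5Y control replicate 1 decided 2 of these. Without it the difference of the effect between the lines was 2.81 (adjusted p = 0.0272, 0.05 to 2.81 over the arrays left out) and the SH-EP2 against SH-SY5Y control difference was -1.49 (adjusted p = 0.0292).

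The HMGA proteins are small chromatin proteins that bind AT-rich DNA, and HMGA2 carries several let-7 sites and is the classic let-7 target. Of its 3 probes, 1 (ILMN_2344662) gave a signal that differed with the shRNA, in SH-EP2 cells only. It was not detected in either SH-SY5Y group (2.23 and 2.79 in controls, 1.83 and 2.09 with the TRPM7 shRNA) or in SH-EP2 control cells (2.45 and 1.82), and was detected on both SH-EP2 TRPM7 shRNA arrays (4.45 and 4.01). In SH-EP2 cells this HMGA2 probe rose at least 2.00-fold (fitted log2 difference 2.10 ± 0.47, limma, adjusted p = 0.0152). The size rested on the background correction, with 0.89 for neqc (adjusted p = 0.00696), 0.46 for normexp (0.00794) and 0.29 without correction (0.00733).

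That HMGA2 call held in 14 of 17 alternatives and was lost without SH-EP2 control replicate 2 (adjusted p = 0.195), without SH-EP2 TRPM7 shRNA replicate 1 (0.115) and without an intensity trend (0.0767). The difference of the effect between the lines was 2.65 on the fitted scale and did not pass (adjusted p = 0.056). It passed in 5 of 16 alternatives, with neqc (1.08, adjusted p = 0.0383), normexp (0.60, 0.0236), no background correction (0.37, 0.0233), probes detected on at least 2 arrays (0.0465) and a crossed replicate block (0.0442). The probe entered the alternative of probes detected on at least 2 arrays only through the SH-EP2 TRPM7 shRNA arrays, where it was high. Its passes there, in both contrasts, are therefore no support. The other HMGA2 probes did not follow this one. The one with the highest mean (ILMN_1666236) was detected on 3 of the 8 arrays, with a fitted SH-EP2 difference of -0.52 (adjusted p = 0.811), and the third (ILMN_1671547) was detected on none. Which transcripts the probes match was not analysed here, and the brightest probe, at background, stands for HMGA2 in the counts of genes.

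HMGA1 was clearly expressed in all 4 groups through 1 of its 4 probes (ILMN_2311537). Log2 signals were 8.75 and 8.90 in SH-SY5Y control cells and 9.12 and 9.06 with the TRPM7 shRNA, and 7.75 and 7.78 in SH-EP2 control cells and 8.36 and 8.16 with the TRPM7 shRNA. The shRNA arrays lay above the controls in both lines without overlap. HMGA1 rose by 0.50 ± 0.12 in SH-EP2 cells (1.41-fold, limma, adjusted p = 0.023). In SH-SY5Y cells the difference was 0.27 ± 0.12, with an adjusted p of 0.392 and a 95% interval from 0.02 to 0.51.

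The SH-EP2 call of HMGA1 held in 11 of 18 alternatives and was lost without any SH-EP2 array (adjusted p from 0.0529 to 0.302), and with the mean over its 4 probes the difference was 0.17. HMGA1 changed by 0.23 more in SH-EP2 than in SH-SY5Y (adjusted p = 0.707). SH-EP2 control cells had 2.08-fold less HMGA1 signal than SH-SY5Y control cells (adjusted p = 4.3e-07). The other 3 probes of HMGA1 were detected on at most 2 arrays and passed in no contrast.

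**Figure D2:**
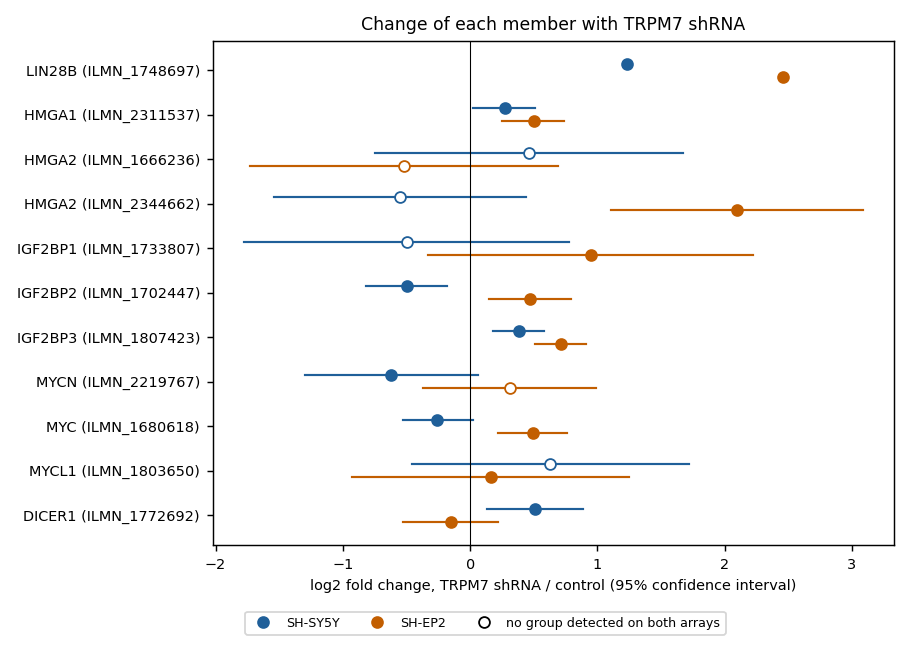
Log2 fold change (x axis) with the TRPM7 shRNA of the brightest probe of each member and of a second HMGA2 probe in SH-SY5Y (blue) and SH-EP2 (orange), with 95% confidence intervals from limma before adjustment; open points had no group detected on both arrays, and LIN28B, chosen for its rise, has no interval. IGF2BP3 and HMGA1 lie to the right of 0 in both lines, IGF2BP2 and MYC on opposite sides.

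The MYC family encodes transcription factors of growth and ribosome synthesis, of which MYCN is the amplified oncogene of neuroblastoma and MYC is used by many cells without amplification. MYC (ILMN_1680618) had log2 signals of 9.56 and 9.76 in SH-SY5Y control cells and 9.46 and 9.35 with the TRPM7 shRNA. In SH-EP2 cells MYC signals were 6.52 and 6.50 in controls and 6.88 and 7.12 with the TRPM7 shRNA. The shRNA arrays lay below the controls in SH-SY5Y and above them in SH-EP2.

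MYC rose by 0.49 ± 0.13 in SH-EP2 cells (1.41-fold, limma, adjusted p = 0.044) and differed by -0.26 ± 0.13 in SH-SY5Y cells (adjusted p = 0.487). The difference between the lines was 0.75 ± 0.18 (adjusted p = 0.048). These calls lay at the threshold: the SH-EP2 call passed in 5 of 18 alternatives and the interaction in 6 of 17, with sizes down to 0.24 and 0.46, and both were lost without any of the 4 SH-EP2 arrays (SH-EP2 adjusted p from 0.0615 to 0.409) and without either SH-SY5Y TRPM7 shRNA array (0.0529 and 0.0532). The interaction was also lost without SH-SY5Y control replicate 2 (adjusted p = 0.185).

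The second MYC probe (ILMN_2110908), which was detected on all 8 arrays too, gave 0.22 ± 0.20 in SH-EP2 cells (adjusted p = 0.755) and -0.08 ± 0.20 in SH-SY5Y cells (adjusted p = 0.942). Its difference between the lines was 0.30 ± 0.29 (limma interaction, adjusted p = 0.7975). The shRNA and control arrays of this probe overlapped in both lines. Both probes put MYC far lower in SH-EP2 than in SH-SY5Y control cells, by 8.89-fold (adjusted p = 1.1e-13) and 17.0-fold (adjusted p = 2.3e-12). For the first probe, the log2 difference of -3.15 was -2.18 without background correction.

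MYCN (ILMN_2219767) was detected in SH-SY5Y cells, with log2 signals of 7.07 and 7.13 in controls and 6.33 and 6.63 with the TRPM7 shRNA, and on no SH-EP2 array. The SH-SY5Y shRNA arrays lay below the controls, by 0.62 ± 0.32 in the mean, which did not pass (adjusted p = 0.507, interval of the difference -1.30 to 0.06). With normexp or no background correction the difference was smaller, -0.38 and -0.30, and passed (adjusted p = 0.039 and 0.0141). MYCN was at least 14.6-fold lower in SH-EP2 than in SH-SY5Y control cells (adjusted p = 1.0e-10). This bound too holds with the RMA correction. The fitted difference of -5.11 was -2.93 with neqc, -1.72 with normexp, -1.23 without correction and -2.91 with the mean over probes, and passed in all 17 alternatives. MYCN entered the alternative filtered by detection only through the SH-SY5Y arrays, where it was high, so that its pass there is no support. A second MYCN probe was detected on 2 of 8 arrays and did not pass in any contrast.

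MYCL1, the third family member, was near background. Its brightest probe (ILMN_1803650) was detected on 5 of 8 arrays at log2 signals no higher than 3.87. Its 3 probes passed in no contrast (adjusted p 0.213 or higher).

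DICER1, the nuclease that cuts let-7 precursors to the mature form and is itself a described let-7 target, had log2 signals of 7.01 and 6.82 in SH-SY5Y control cells and 7.59 and 7.26 with the TRPM7 shRNA (ILMN_1772692). In SH-EP2 cells the values were 6.27 and 6.44 in controls and 6.33 and 6.07 with the TRPM7 shRNA. The shRNA arrays lay above the controls in SH-SY5Y and overlapped with them in SH-EP2. The differences were 0.51 ± 0.18 in SH-SY5Y cells (limma, adjusted p = 0.214, interval 0.13 to 0.89) and -0.15 ± 0.18 in SH-EP2 cells (adjusted p = 0.827). DICER1 was 1.48-fold lower in SH-EP2 than in SH-SY5Y control cells (adjusted p = 0.0246), a call lost without SH-EP2 control replicate 1 (adjusted p = 0.164) or SH-SY5Y control replicate 1 (0.150). A second DICER1 probe (ILMN_2349831) was also lower there, by 3.87-fold (adjusted p = 0.00389), with detection on 1 of the 2 SH-EP2 control arrays.

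Counted together, the 9 members other than LIN28B had a median log2 difference of 0.27 in SH-SY5Y cells, against 0.00 over all genes, with 5 fitted higher and 4 lower. In SH-EP2 cells their median was 0.47 against 0.01, with 7 fitted higher and 2 lower, and 3 (IGF2BP3, HMGA1 and MYC) were called, all higher. Of all genes, 3.67% were called in SH-EP2 (1.82% higher), and 8.64% of those with a mean log2 signal of at least 5. HMGA2, IGF2BP1 and MYCL1 entered these medians with probes near background.

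**Figure D3:**
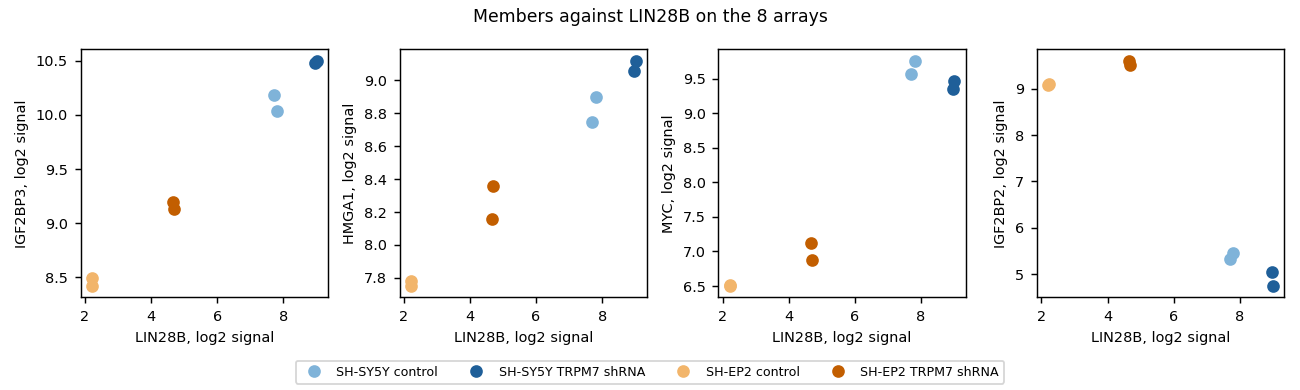
Log2 normalized signal of IGF2BP3, HMGA1, MYC and IGF2BP2 (y axes) against that of LIN28B (x axes) on the 8 arrays, 1 point per array, coloured by group. IGF2BP3 and HMGA1 keep the group order of LIN28B, MYC is highest in SH-SY5Y control cells, and IGF2BP2 runs from high in SH-EP2 to low in SH-SY5Y.

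The genes whose signal was most like that of LIN28B over the 8 arrays, of 17264 genes compared, were CGN, IGF2BP3, ZNF30, DPYSL3 and DTNA, with Pearson correlations of 0.998, 0.998, 0.996, 0.996 and 0.996. Among the other members the correlation was 0.99 for HMGA1, 0.95 for MYC, 0.92 for MYCN, 0.85 for DICER1 and -0.91 for IGF2BP2. It was -0.22 for IGF2BP1, -0.23 for HMGA2 and -0.5 for MYCL1, whose brightest probes were near background. The arrays fall into the 2 lines, whose difference dominates these correlations, so that they describe a pattern of groups and not a relation within a line. CGN encodes the tight junction protein cingulin. Its differences with the TRPM7 shRNA were 0.63 in SH-SY5Y and 1.48 in SH-EP2.

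Of 30 other genes described or predicted as let-7 targets, 29 were measured. In SH-SY5Y cells 2 passed, 1 higher and 1 lower, and 27 did not, where 2.57% of all genes were called and 6.20% of those with a mean log2 signal of at least 5. In SH-EP2 cells 4 passed, 3 higher and 1 lower, and 25 did not, against 3.67% and 8.64%. Single arrays decided part of this: the SH-SY5Y count was 1 without SH-SY5Y control replicate 2 or TRPM7 shRNA replicate 2 and 0 without TRPM7 shRNA replicate 1, and the SH-EP2 count was 3 or 4 with any array left out. The median difference of the list was 0.05 in SH-SY5Y and 0.00 in SH-EP2, against 0.00 and 0.01 over all genes, with 20 and 14 of the 29 fitted above 0. Among the targets with a mean log2 signal of at least 5 in the line, the median was 0.06 in SH-SY5Y (14 of 18 fitted higher), against 0.01 over all such genes, and 0.12 in SH-EP2 (12 of 21 fitted higher), against 0.02. No test was run on the list as a whole.

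CDK6, the kinase that drives entry into the cell cycle with D cyclins, rose in both lines. Its log2 signals in SH-SY5Y cells were 10.60 and 10.54 in controls and 11.01 and 10.93 with the TRPM7 shRNA (0.40 ± 0.08, limma, adjusted p = 0.0106). In SH-EP2 cells they were 9.99 and 10.00 in controls and 11.32 and 11.18 with the TRPM7 shRNA (1.25 ± 0.08, adjusted p = 1.5e-08). CDK6 changed more in SH-EP2, by 0.86 ± 0.12 (adjusted p = 0.000254). The SH-SY5Y rise was lost in 3 of 18 alternatives, without SH-SY5Y control replicate 2 (adjusted p = 0.0741), without SH-SY5Y TRPM7 shRNA replicate 1 (0.098) and without an intensity trend (0.484). The SH-EP2 rise was lost in 1, without an intensity trend (0.053).

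CCND1, the D cyclin that pairs with CDK6, had opposite differences in the lines. It fell by 0.36 on the log2 scale in SH-SY5Y cells (controls 12.97 and 13.01, TRPM7 shRNA 12.63 and 12.62, adjusted p = 0.0303) and rose by 0.52 in SH-EP2 cells (controls 10.02 and 10.33, TRPM7 shRNA 10.64 and 10.76, adjusted p = 0.00117). The difference between the lines was 0.89 ± 0.12 (adjusted p = 0.000332). The decrease in SH-SY5Y was lost in 7 of 18 alternatives. It did not pass without any 1 of the 4 SH-SY5Y arrays (-0.35 to -0.39, adjusted p from 0.0867 to 0.173), with median scaling (-0.24, adjusted p = 0.313), with the mean over probes (0.0775) or without an intensity trend (0.583). The rise in SH-EP2 and the difference between the lines were lost only without an intensity trend (0.378 and 0.368).

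ARID3B, a DNA-binding protein that is a described let-7 target in neuroblastoma and other cells, rose by 0.67 ± 0.18 in SH-EP2 cells (adjusted p = 0.0427) and had a difference of 0.32 in SH-SY5Y cells (adjusted p = 0.533). The ARID3B rise passed in 6 of 18 alternatives. It was 0.44 with neqc, 0.25 with normexp and 0.18 without correction (adjusted p = 0.0818, 0.213 and 0.299), and was lost on leaving out 5 of the arrays, SH-EP2 control replicate 1 (adjusted p = 0.0813) or 2 (0.281), SH-EP2 TRPM7 shRNA replicate 2 (0.418) and SH-SY5Y TRPM7 shRNA replicate 1 (0.0644) or 2 (0.0628). COL1A2, a chain of type I collagen, went the other way in SH-EP2 cells, from 11.40 on both control arrays to 9.78 and 9.90 (-1.56 ± 0.27, adjusted p = 0.0015), and passed in 17 of 18 alternatives.

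**Figure D4:**
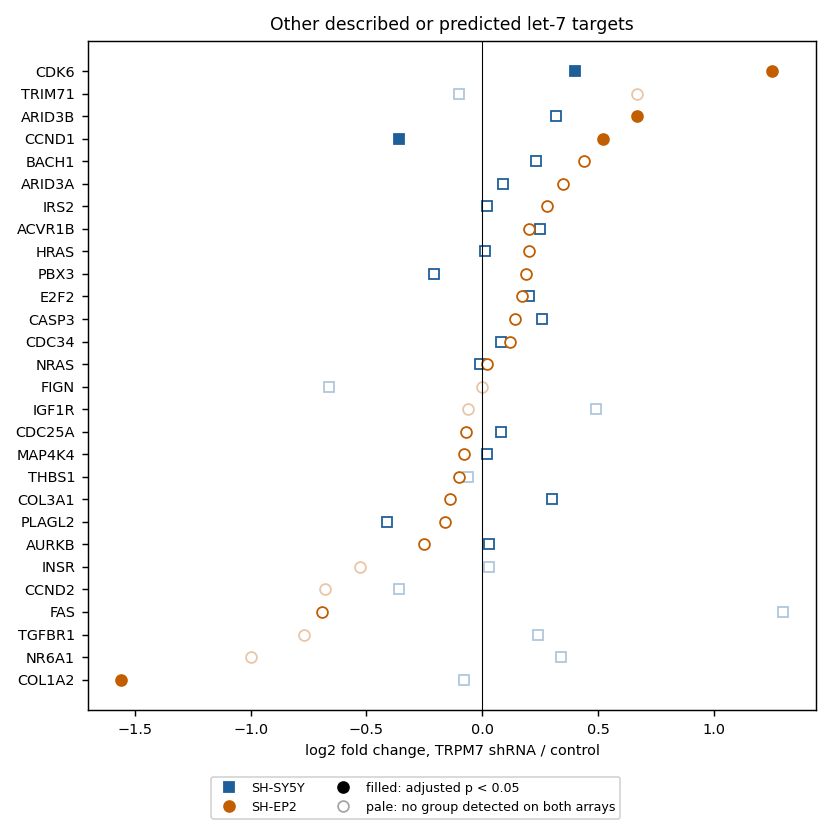
Log2 fold change (x axis) with the TRPM7 shRNA of 28 of the 29 other described or predicted let-7 targets in SH-SY5Y (squares) and SH-EP2 (circles); filled points had an adjusted p under 0.05 and pale points had no group detected on both arrays. The values lie on both sides of 0, with CDK6 the one gene called higher in both lines.

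Mature let-7 was not measured. Of the 12 let-7 and miR-98 hairpin genes, 10 had a probe under their symbol, and these probes report longer polyadenylated transcripts at most. All 10 were near background and 0 passed in either line. MIR98 was detected on the 4 SH-SY5Y arrays, with log2 signals of 3.41 and 3.76 in controls and 3.21 and 4.41 with the TRPM7 shRNA, which overlapped. MIRLET7D was detected on both SH-SY5Y TRPM7 shRNA arrays (3.88 and 3.84) and on neither control (2.97 and 2.99). The fitted log2 difference of 0.88 ± 0.52 did not pass (limma, adjusted p = 0.586).

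Of 21 genes of the microRNA machinery, which cut, export, load or tail small RNAs, 1 passed in each line, both higher, where 2.57% of all genes were called in SH-SY5Y and 3.67% in SH-EP2 (6.20% and 8.64% of those with a mean log2 signal of at least 5). These were DDX17, an RNA helicase of the nuclear microprocessor, in SH-SY5Y (0.47 ± 0.12, adjusted p = 0.0382) and TUT1, a terminal uridylyltransferase, in SH-EP2 (0.71 ± 0.17, adjusted p = 0.0216). The DDX17 call held in 8 of 18 alternatives, and was lost without any array other than SH-SY5Y TRPM7 shRNA replicate 1 and with the mean over probes (0.13). That of TUT1 held in 13 of 18, and was lost without SH-EP2 control replicate 1 or either SH-EP2 TRPM7 shRNA array. TUT4, an enzyme that tails let-7 precursors held by LIN28, differed by -0.12 in SH-SY5Y and 0.22 in SH-EP2 (limma, adjusted p = 0.856 and 0.620). DIS3L2, which degrades the tailed precursors, differed by -0.26 and -0.09 (0.810 and 0.946).

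Among 8 ligand and mRNA partners of the IGF2BP proteins, 0 passed in SH-SY5Y (2.57% of all genes, 6.20% of those with a mean log2 signal of at least 5). In SH-EP2 3 passed (3.67% of all genes, 8.64% of those with a mean log2 signal of at least 5). There CD44, a cell surface receptor whose mRNA the family binds, rose by 0.77 ± 0.18 (adjusted p = 0.0207), and PABPC1, the poly(A)-binding protein, by 0.42 ± 0.06 (adjusted p = 0.0004). The noncoding RNA H19 fell at least 3.61-fold, from 4.62 and 5.43 in control cells to no detection (adjusted p = 0.00165). The fitted H19 difference of -2.75 was -1.30 with neqc, -0.63 with normexp and -0.41 without correction, and passed in all 18 alternatives. H19 entered the alternative filtered by detection only through the SH-EP2 control arrays, where it was high, so that its pass there is no support. The CD44 call was lost without any 1 of the 4 SH-EP2 arrays (adjusted p from 0.0676 to 0.23), with median scaling (0.105), with the mean over probes (0.271) and without an intensity trend (0.44), and the PABPC1 call without an intensity trend (0.411). CD44 is also the mesenchymal marker that was called higher in SH-EP2, where COL1A1 (-0.56) and SNAI2 (-1.39) were called lower.

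Of 18 genes of the MYC network (partners, antagonists and regulators of stability), 2 passed in SH-SY5Y (2.57% of all genes, 6.20% of those with a mean log2 signal of at least 5). FBXW7, a ubiquitin ligase subunit that marks MYC proteins for degradation, rose by 0.58 ± 0.14 (adjusted p = 0.0342), and MXD1, a MAX partner that opposes MYC, fell from 5.69 and 4.75 to 3.49 and 3.81 (-1.57 ± 0.37, adjusted p = 0.0282). FBXW7 passed in 9 of 18 alternatives and was lost without any 1 of the 4 SH-SY5Y arrays (adjusted p from 0.0733 to 0.264) or either SH-EP2 TRPM7 shRNA array (0.0527 and 0.0528). MXD1 passed in 12 of 18, and was lost with neqc (-0.84, adjusted p = 0.0644), with median scaling, without an intensity trend, and without SH-SY5Y control replicate 1 (-1.09, 0.293), SH-SY5Y TRPM7 shRNA replicate 1 (0.204) or 2 (0.0811). It was -0.41 with normexp and -0.28 without correction, which passed. In SH-EP2 cells 0 of 18 passed by limma, and 0 in each alternative run, with FBXW7 at 0.39 (adjusted p = 0.193) and MXD1 at -0.72 (adjusted p = 0.452). Over all genes 3.67% were called in SH-EP2, and 8.64% of those with a mean log2 signal of at least 5. MAX itself differed by 0.05 in SH-SY5Y and 0.08 in SH-EP2.

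Of 30 genes described as activated by MYC or MYCN, 2 passed in SH-SY5Y, both lower, and 5 in SH-EP2, 4 higher and 1 lower. Over all genes 2.57% and 3.67% were called, and 6.20% and 8.64% of those with a mean log2 signal of at least 5. The SH-EP2 count was 2 to 6 with an array left out (2 without control replicate 2 or TRPM7 shRNA replicate 1) and 0 to 9 in the other alternatives (0 without an intensity trend, 9 with each line alone). The list's median difference was 0.02 in SH-SY5Y and 0.09 in SH-EP2, against 0.00 and 0.01 over all genes. In SH-EP2 cells the genes that rose were TFRC, the transferrin receptor (0.52 ± 0.08, adjusted p = 0.000389), ODC1, which starts polyamine synthesis (0.41 ± 0.08, adjusted p = 0.00537), NOP56 (0.36) and NCL (0.31), both nucleolar proteins of ribosome synthesis. TFRC passed in 17 of 18 alternatives, ODC1 in 14, and NOP56 and NCL in 11 each. ODC1 was lost without SH-EP2 control replicate 1 or 2 or TRPM7 shRNA replicate 1, and NOP56 and NCL without SH-EP2 control replicate 2 or either TRPM7 shRNA array. With the mean over probes NOP56 was 0.12 and NCL 0.19.

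APEX1, a DNA repair endonuclease, fell in both lines. Its log2 signals went from 11.48 and 11.44 to 10.24 and 10.30 in SH-SY5Y cells (-1.19 ± 0.08, limma, adjusted p = 3.4e-08) and from 10.80 and 10.67 to 9.99 and 10.08 in SH-EP2 cells (-0.70 ± 0.08, adjusted p = 3.1e-05). NME2, a nucleoside diphosphate kinase whose sequence is close to that of NME1, so that the probe may not separate them, fell by 0.60 in SH-SY5Y cells (adjusted p = 0.00979) and differed by 0.29 in SH-EP2 cells (adjusted p = 0.304). APEX1 was lost in either line only without an intensity trend. NME2 in SH-SY5Y passed in 12 of 18 alternatives and was lost without SH-SY5Y control replicate 2 or either TRPM7 shRNA array, with median scaling, without an intensity trend and with the mean over probes (0.00).

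**Figure D5:**
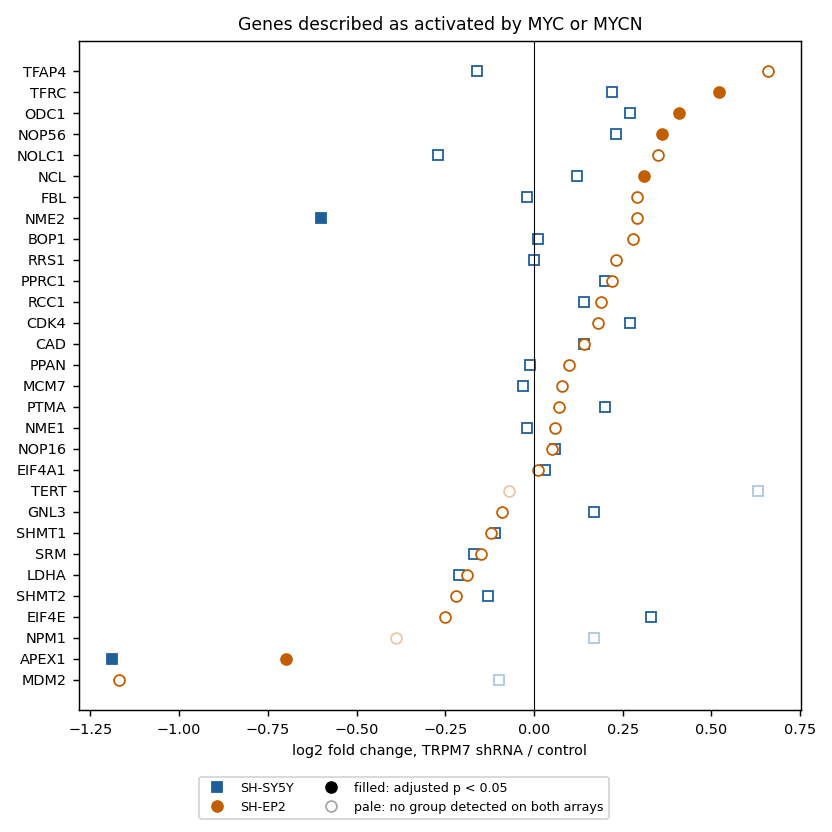
Log2 fold change (x axis) with the TRPM7 shRNA of 30 genes described as activated by MYC or MYCN in SH-SY5Y (squares) and SH-EP2 (circles); filled points had an adjusted p under 0.05 and pale points had no group detected on both arrays. The 4 called increases are all in SH-EP2, and APEX1 is the one gene called in both lines, lower in each.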

How the data were processed

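Bead signal intensity and detection p-value for 47322 probes were extracted by the authors in GenomeStudio 2011.1 (per the labels), and the deposited intensities were not normalized between arrays. Starting from these, an RMA background correction, quantile normalization of the 8 arrays and log2 were applied, and 1 linear model of the 4 groups was fitted in R 4.3.3 with limma 3.58.1, whose eBayes used the intensity trend. It compared TRPM7 shRNA with control cells within each line, the difference of these (interaction), and SH-EP2 against SH-SY5Y control cells. Tests were two-sided, Benjamini-Hochberg adjusted over all probes, at a threshold of 0.05. RMA normalization follows the study, whose test is not given in the sources used here.

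A symbol was given for 44052 probes (31426 symbols), and a gene is represented by its probe with the highest mean. No filter on dim probes was applied, so all 22 member probes were tested. A probe with a detection p under 0.05 was called detected; a group with neither array detected has only a bound. The members and gene lists were chosen with earlier results of these data known; all members were named, and in each list up to 6 genes called per line, by size. TUT4, DIS3L2, MAX, MIR98 and MIRLET7D were taken as examples after their values were seen, and the let-7 precursor list was added then. The let-7 target counts include 1 gene that is not reported here singly. Replicate numbers were not treated as pairs, since the replicate differences of control and shRNA cells correlated at -0.111 in SH-SY5Y and -0.00447 in SH-EP2 over 14577 probes. Only the model fit was tried on simulated data, with changes of 2 on the log2 scale planted in probes detected on all arrays. That run did not cover the background correction, the normalization, smaller changes or changes in signals near background. The alternatives comprised median scaling, neqc and normexp (offsets 16 and 50), signals without background correction, probes detected on at least 2 arrays, no intensity trend, each line alone, a replicate block, the mean over a gene's probes and leaving out each array.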

Additional observations from a re-analysis of the deposited data

Results flagged for a closer look

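The effect of the TRPM7 shRNA differed between the lines, by the limma interaction test, for 2 members and 5 genes of the lists. In this contrast 1.78% of all genes were called, and 4.49% of those with a mean log2 signal of at least 5. The SH-EP2 log2 difference minus that in SH-SY5Y was 0.97 for IGF2BP2 (adjusted p = 0.026) and 0.75 for MYC (adjusted p = 0.048). Both genes had opposite signs in the lines. IGF2BP2 was at 0.47 in SH-EP2 and -0.50 in SH-SY5Y, neither called. MYC was at 0.49 in SH-EP2, called, and -0.26 in SH-SY5Y, not called. The interaction passed in 9 of 17 alternatives for IGF2BP2 and 6 of 17 for MYC. For the second MYC probe it was 0.30 (adjusted p = 0.7975). Among the other let-7 targets the difference was 0.89 for CCND1, called lower in SH-SY5Y and higher in SH-EP2, and 0.86 for CDK6, called higher in both. Among the genes activated by MYC it was 0.49 for APEX1 (adjusted p = 0.0425) and 0.89 for NME2 (adjusted p = 0.00857). APEX1 was called lower in both lines, with the smaller decrease in SH-EP2. The APEX1 interaction passed in 5 of 17 alternatives and was lost on leaving out any array. That of NME2 passed in 12 of 17, with sizes down to 0.2. For PABPC1, which IGF2BP proteins accompany on mRNAs, the difference between the lines was 0.41 (adjusted p = 0.0177), with a difference of 0.00 in SH-SY5Y. It passed in 8 of 17 alternatives and was lost on leaving out any SH-EP2 array. The interactions of CCND1 and CDK6 passed in 16 of 17 each. The part of the line difference in starting level was not tested.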

How the results depend on the processing

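The counts of members that differed between the control lines stayed between 5 and 7 in all alternatives run. Of the 9 members other than LIN28B, the 1 called in SH-SY5Y became 2 with normexp and 2 without background correction (1 higher and 1 lower in both), and 0 without an intensity trend, with each line alone and with the replicate block; leaving out each array gave 0 to 1. The 3 called in SH-EP2 became 0 without an intensity trend, 1 with the replicate block and 1 with the mean over probes, and 1 to 3 with an array left out. The 2 interactions became 0 with median scaling, 0 without an intensity trend, 1 with the replicate block and 1 with the mean over probes, and 0 to 3 with an array left out. The 2 let-7 targets called in SH-SY5Y became 0 without an intensity trend and 1 with the mean over probes (0 to 2 with an array left out: 1 without SH-SY5Y control replicate 2, 0 without SH-SY5Y TRPM7 shRNA replicate 1, 1 without SH-SY5Y TRPM7 shRNA replicate 2), and the 4 in SH-EP2 became 0 without an intensity trend (3 to 4 with an array left out). A block pairing the SH-SY5Y numbers crosswise, added after the data were seen, left 1 member called in SH-SY5Y, 2 interactions and 3 let-7 targets. Of the signs, the LIN28B difference between the lines (1.23) turned to -0.05 with neqc, -0.48 with normexp and -0.57 without background correction. The SH-EP2 against SH-SY5Y control difference of IGF2BP1 (-0.10) turned to 0.27 without SH-EP2 control replicate 1 and 1.30 without SH-SY5Y control replicate 2, in a range from -1.49. The SH-EP2 difference of MYCL1 (0.16) turned to -0.26 without SH-EP2 control replicate 1 (range to 0.59), and its interaction (-0.47) to 0.22 with the mean over probes and 0.16 without SH-SY5Y control replicate 2 (range from -1.10). Where 1 array of a group was left out, the remaining array was assumed to vary like the other groups. The called genes of the microRNA machinery, MYC and IGF2BP partner lists were also rerun under these alternatives, a step added after the data were seen. The slide was not run as a block, since no slide is named. The cause of these changes was not tested. Signals near background limit HMGA2, IGF2BP1, MYCL1 and, in SH-EP2, LIN28B and MYCN.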
